A study of Mus musculus with 5 samples.

Results

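The proteasome subunits, activators and assembly chaperones of the mouse were examined as every gene whose symbol in the platform annotation is Psm followed by a letter from a to g and a number, with or without a closing letter. The rule reads names and no measured value, and it gave 47 genes with 82 probes, out of 19057 genes that the annotation names. Of these, 40 genes with 65 probes lay above the background floor on at least 2 arrays and were tested, and 38 of the 40 lay above it on all 5 arrays. The other 7 genes (Psma1, Psma3, Psma6, Psmb11, Psmc6, Psmd3 and Psmg4) had no probe above the floor and give no difference here.

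RNA of erythroblasts from mouse marrow, the cells that lose their nucleus to become red cells, was read on Illumina bead arrays. The labels put 2 arrays in the Flvcr-deleted group and 3 in the wild-type group, with C57BL/6J as the strain of both. Flvcr1 encodes a heme exporter of the plasma membrane. How and in which cells the gene was deleted, the age and sex of the animals, and any pooling of animals are not given in the sources used. No label says that replicates came from separate animals, so the p-values reflect the spread of 5 arrays, which may be technical.

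The targeted gene went against the labels. The Flvcr1 probe read 9.88 and 9.75 (log2 signal) on the arrays labelled Flvcr-deleted and 8.16, 8.32 and 8.25 on those labelled wild-type, a difference of 1.57 ± 0.10 (SE; limma, adjusted p = 1.36e-05). Whether this probe lies inside the deleted part is not known from these sources, so it neither checks nor settles the labels, and every direction that follows rests on them. Of the erythroblast markers, 12 of 13 were above the floor on all wild-type arrays, with Epb42 below it on every array. A total of 10 of the 12 tested markers (83.3%) were called lower in the arrays labelled deleted, against 17.5% of all genes tested. The summed linear signal of the list was 86327 to 92544 in those arrays against 118538 to 128353 in wild type. In bulk RNA, fewer cells of a type and less RNA per cell cannot be told apart. What this shift contributed to the proteasome values was not tested.

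The proteasome is the chamber in which cells break down proteins tagged with ubiquitin. Its core particle is a barrel of stacked rings, outer rings of alpha subunits that gate the entrance and inner rings of beta subunits that hold the cutting sites. A regulatory particle of ATPases and lid subunits binds the tagged protein, removes the tag and unfolds the chain, while other caps (the PA28 activators and PA200) open the gate without ubiquitin. Interferon-induced immunosubunits can take the places of the catalytic beta subunits and change the peptides that are cut. Erythroblasts clear much of their protein through this system as they mature into red cells.

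Genes of the proteasome were more often higher than lower in the arrays labelled Flvcr-deleted. Of the 40 tested, 17 rose, 1 fell (Psmb9) and 22 did not pass the test (limma, adjusted p under 0.05 over 10076 genes). The share called in either direction, 45%, was near the background of 39.3% among all genes tested. The split by direction was not: 42.5% of the proteasome genes were higher against 21.8% of all genes, and 2.5% were lower against 17.5%. The median log2 difference was 0.33, beside 0.01 for all genes, and 34 of 40 differences were above 0 against 51.7% of all genes. The arrays of the groups did not overlap for 22 genes in the higher direction and for 1 in the lower, where 32.3% and 26.8% of all genes were so separated.

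The changes were modest. A total of 9 of the 40 genes (22.5%) rose by at least 1.5-fold, against 12.6% of all genes. Those that rose by at least 2-fold were 2 of 40 (5%), Psmb10 and Psmg1, which is near the 4.64% of all genes. Both arrays labelled deleted carried the shift: their median over the 40 genes lay 0.33 and 0.34 above the wild-type mean, while the wild-type arrays lay at 0.02, -0.07 and 0.04. Flvcr-deleted replicate 1 was the highest of the 5 arrays for 21 of the genes and Flvcr-deleted replicate 2 for 12. Wild-type replicate 2 was the lowest for 21. Without Flvcr-deleted replicate 1 the number higher was 12 (30%), with 16.3% of all genes then higher, and it was 15 to 17 when any other array was left out. A total of 9 of the 17 kept their call whichever array was left out.

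**Figure D1:**
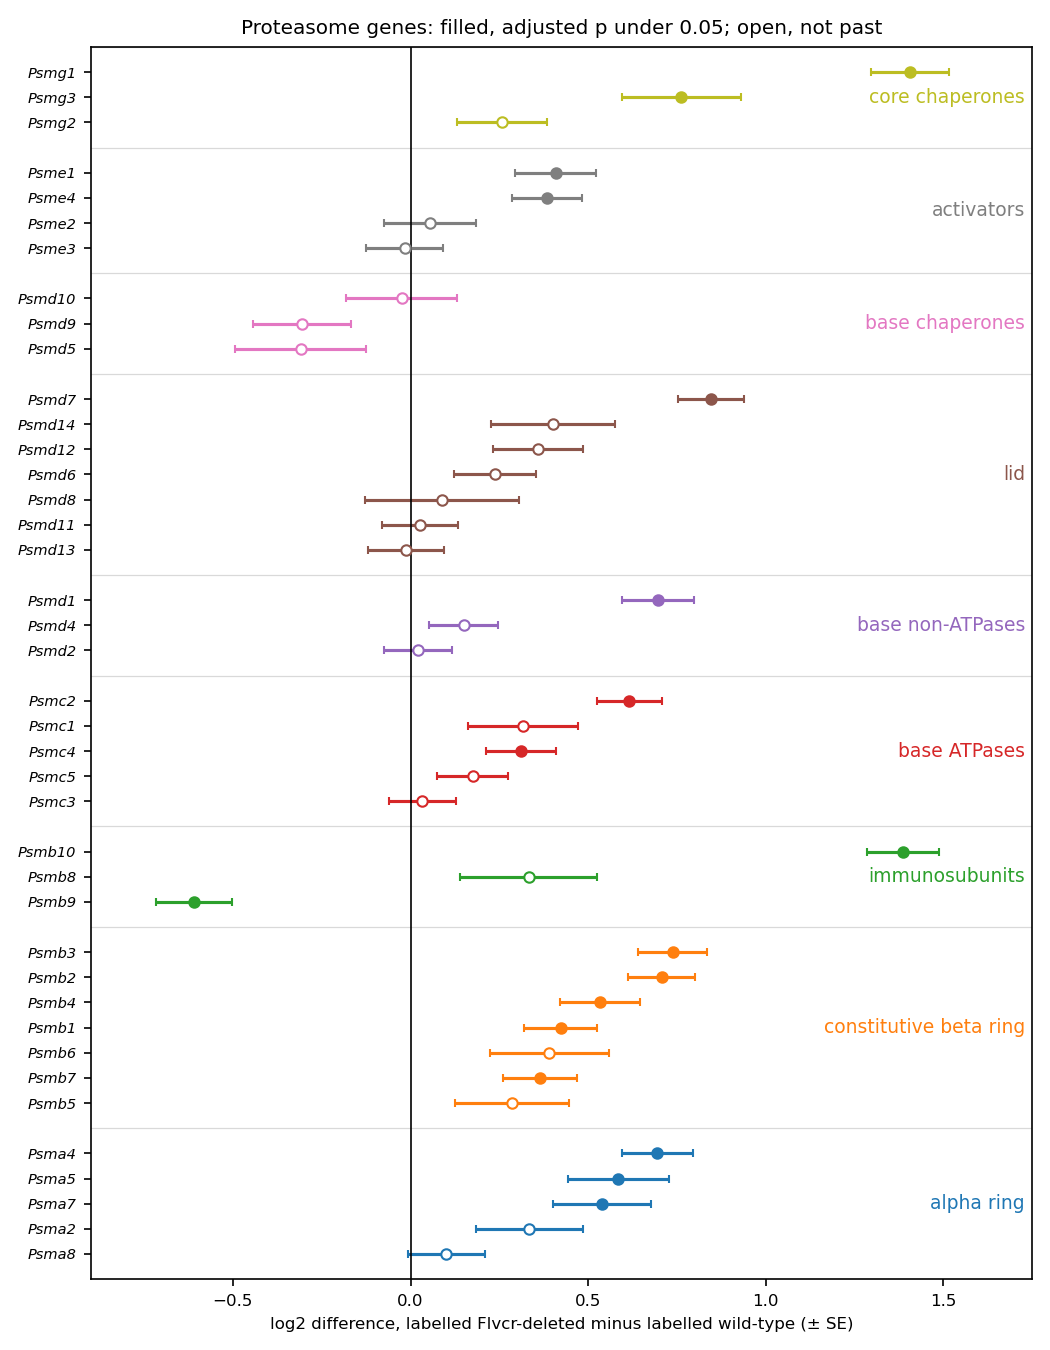
Log2 difference between the Flvcr-deleted (n = 2) and wild-type (n = 3) arrays, grouped by label, for the 40 tested proteasome genes, by role in the particle. Points are the fitted difference, bars its SE, and filled points passed the test. Psmb10 and Psmg1 lie farthest to the right, at 1.39 and 1.41, and Psmb9 farthest to the left, at -0.61.

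The catalytic subunits showed the widest spread. Each immunosubunit replaces one constitutive subunit: Psmb9 (beta-1i) replaces Psmb6, which cuts after acidic residues. Psmb10 (beta-2i) replaces Psmb7, which cuts after basic residues, and Psmb8 (beta-5i) replaces Psmb5, which cuts after hydrophobic residues. The immunosubunits did not move together, since 1 rose, 1 fell and 1 did not pass the test.

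Psmb10 read 10.44 and 10.41 in the arrays labelled deleted and 9.11, 8.92 and 9.07 in wild type. The groups stood well apart, and the arrays of each group lay close together. Psmb10 was 2.62-fold higher, a log2 difference of 1.39 ± 0.10 (SE; limma, adjusted p = 2.09e-05). Its second probe gave 1.45, and the difference stayed between 1.33 and 1.42 with any array left out.

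Psmb9 went the other way. It read 7.41 and 7.56 in the arrays labelled deleted and 8.11, 7.98 and 8.18 in wild type, so every deleted array lay below every wild-type array. Psmb9 was 1.52-fold lower (-0.61 ± 0.11, limma, adjusted p = 0.00193), and kept its call without any single array. It was the only proteasome gene of the 40 tested to fall with all 5 arrays. Psmb9 was read by a single probe, and its values on the arrays labelled deleted lay not far above the floor of 6.83.

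Psmb8 read 8.22 and 8.86 against 8.15, 8.44 and 8.03. The groups overlapped, because Flvcr-deleted replicate 1 lay among the wild-type arrays. The difference was 0.33 ± 0.19 (limma, adjusted p = 0.220), and leaving out Flvcr-deleted replicate 1 made it 0.66. A dimmer probe of Psmb8 gave 0.10 (adjusted p = 0.552 over all probes).

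Among the constitutive partners, Psmb7 read 12.20 and 12.33 against 12.003, 11.87 and 11.82. Dimmer probes of Psmb7 gave 0.27, 0.32 and 0.35 (limma, adjusted p = 0.04999, 0.0591 and 0.105 over all probes), with overlapping groups in the last. On its brightest probe Psmb7 rose 1.29-fold (0.37 ± 0.10, limma, adjusted p = 0.0213), with no overlap between the groups. This call was lost without Flvcr-deleted replicate 2 (0.30, adjusted p = 0.158) and without wild-type replicate 3 (0.33, adjusted p = 0.0525).

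Psmb6 read 11.59 and 11.56 against 11.31, 10.82 and 11.41. The groups were separate but the low wild-type replicate 2 widened the spread, and the difference of 0.39 ± 0.17 did not pass (limma, adjusted p = 0.101). It passed without wild-type replicate 3 (0.51, adjusted p = 0.0381), and a second Psmb6 probe passed on its own at 0.40 (adjusted p = 0.0414 over all probes).

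Psmb5 read 9.24 and 9.31 against 9.26, 8.67 and 9.03, and wild-type replicate 1 reached the level of the deleted arrays. Its difference was 0.29 ± 0.16 (limma, adjusted p = 0.205).

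The difference between each immunosubunit and its partner was then taken within each array, as log2 signal of one probe minus that of the other. This asks whether the pair changed unequally and says nothing about their relative amounts. For Psmb10 minus Psmb7 it was -1.76 and -1.92 in the arrays labelled deleted and -2.89, -2.94 and -2.75 in wild type. The difference was thus higher by 1.02 on the deleted arrays, on the side of the immunosubunit, and the groups did not overlap. For Psmb9 minus Psmb6 it was -4.18 and -4.00 against -3.20, -2.84 and -3.24, a change of -0.9997 toward the constitutive subunit, again without overlap. For Psmb8 minus Psmb5 it was -1.03 and -0.44 against -1.12, -0.23 and -1.0001, with overlapping groups and a change of 0.05. An exact two-sided permutation test over the 5 arrays gave p = 0.1 for the Psmb10 and Psmb9 pairs (0.15 adjusted over the 3 pairs) and 0.9 for the last. With 2 arrays against 3, 0.1 is the smallest p the design allows.

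**Figure D2:**
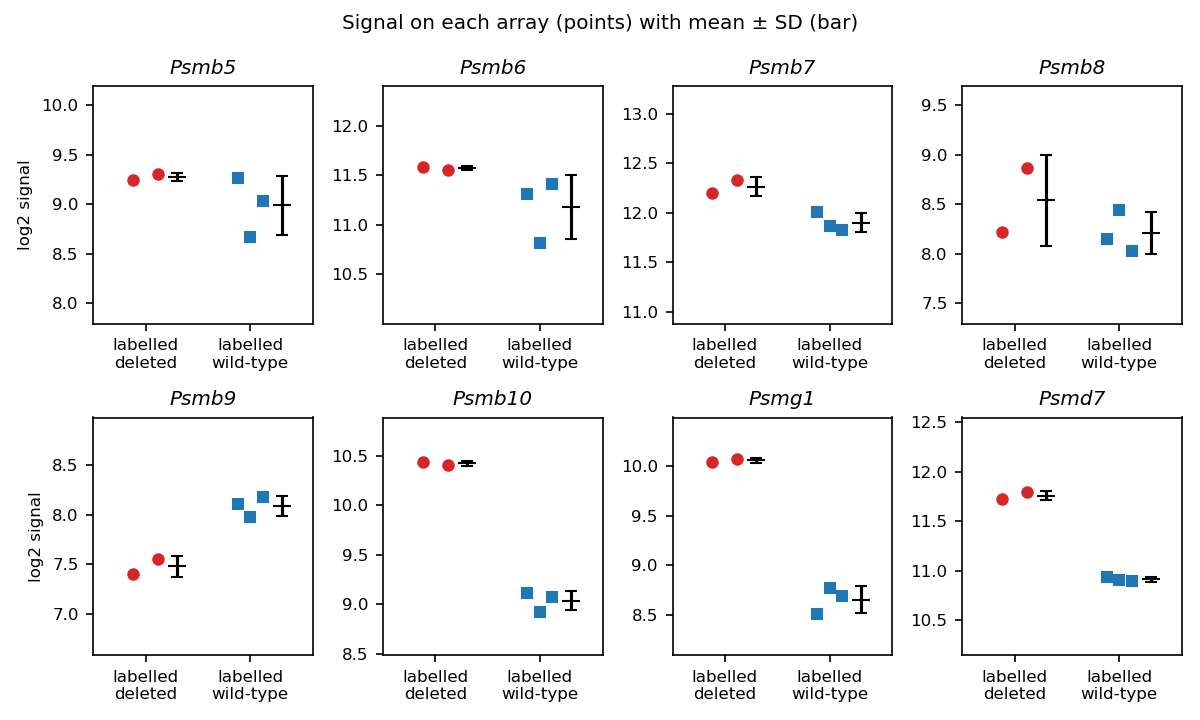
Log2 signal on each array for the 3 catalytic subunits, their 3 immunosubunit counterparts, Psmg1 and Psmd7. Circles are arrays labelled Flvcr-deleted (n = 2), squares arrays labelled wild-type (n = 3), and bars the mean ± SD. All panels span the same height, and only Psmb5 and Psmb8 overlap between groups.

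Psmb9 and Psmb8 lie in the class II region of the major histocompatibility complex on chromosome 17, in the order Psmb9, Tap1, Psmb8, Tap2. Tap1 and Tap2 form the pump that carries cut peptides into the endoplasmic reticulum. Psmb9 and Tap1 are head to head and share the stretch between their starts, while Psmb10 lies on chromosome 8. Both neighbours at the shared stretch fell: beside Psmb9, Tap1 fell by 0.33 ± 0.10 on the log2 scale (limma, adjusted p = 0.0311). Tap2, next to Psmb8, gave 0.29 ± 0.12 (adjusted p = 0.0837). Tap1 and Tap2 are named after their values were seen, and Tap1 lay near the floor of 6.83, at 7.05 and 7.15 against 7.41, 7.34 and 7.54. The stretch between Psmb9 and Tap1 (chr17:34187331-34187555, minus strand) and the 250 bases before the start of Psmb10 (chr8:105938393-105938642, minus strand) are shown because these immunosubunits moved in opposite directions. They are written 5′ to 3′ toward the Psmb9 and Psmb10 starts, from RefSeq on GRCm38.p6, and capitals mark a CCAAT box on either strand.
Psmb9: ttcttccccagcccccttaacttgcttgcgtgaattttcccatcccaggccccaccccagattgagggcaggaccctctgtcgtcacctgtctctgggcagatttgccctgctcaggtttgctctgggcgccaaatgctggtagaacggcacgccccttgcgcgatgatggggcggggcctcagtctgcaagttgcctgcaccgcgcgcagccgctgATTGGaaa
Psmb10: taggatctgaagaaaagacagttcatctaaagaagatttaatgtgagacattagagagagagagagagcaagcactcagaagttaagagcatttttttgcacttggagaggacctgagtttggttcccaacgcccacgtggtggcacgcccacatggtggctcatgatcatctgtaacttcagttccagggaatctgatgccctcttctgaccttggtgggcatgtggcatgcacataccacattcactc
The Psmb9 stretch ends in an inverted CCAAT box, and the Psmb10 stretch holds none of the 4 motifs searched.

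The immunosubunits are induced by interferon in many cells, so interferon-response and class I antigen-processing genes were read from lists. Of 19 interferon-response genes tested, 8 fell (42.1%, against 17.5% of all genes) and 1 rose (5.26%, against 21.8%). The median log2 difference was -0.39 beside 0.01 for all genes. With the mean of each gene's probes that median was -0.17. Usp18, which removes ISG15 from proteins, fell by 1.57 ± 0.21 on the log2 scale (limma, adjusted p = 4.05e-04). Igtp, a GTPase of interferon-gamma responses, fell by 1.16 ± 0.17 (adjusted p = 7.89e-04), and Irf9, the DNA-binding part of the type I interferon factor, fell by 0.99 ± 0.10 (adjusted p = 9.99e-05). Ifngr1, a chain of the interferon-gamma receptor, was the gene that rose, by 0.79 ± 0.11 (adjusted p = 5.73e-04).

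Of 10 class I genes tested, 4 fell (Tapbp, B2m, Tap1 and H2-D1) and 1 rose, with a median of -0.02. These are 40% and 10%, against 17.5% and 21.8% of all genes. The number that fell was 1 without either Flvcr-deleted array and 2 to 3 without a wild-type array, it was 2 with the mean of each gene's probes, and the number that rose was 2 without Flvcr-deleted replicate 2 and also without wild-type replicate 3. Pdia3, a chaperone of the peptide-loading complex that also folds other glycoproteins, rose by 0.96 ± 0.11 (limma, adjusted p = 1.75e-04). Tapbp, which bridges class I molecules to the peptide pump, fell by 0.61 ± 0.12 (adjusted p = 0.00384), but the mean of its probes gave -0.22 (adjusted p = 0.169). B2m, the class I light chain, fell by 0.39 ± 0.10 (adjusted p = 0.0117), a call lost without either Flvcr-deleted array (adjusted p = 0.0501 and 0.0851).

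Markers of leukocytes, which carry immunosubunits at high levels, were read beside these genes, and the lists differed in how many fell against the 17.5% of all genes. The summed signals take in every listed gene on the array, also those not above the floor. Background was not subtracted, so it makes up much of the smaller sums, which do not measure the size of a fall. Neutrophil markers fell for 5 of 13 (10 without wild-type replicate 2, and 1 with the intensity trend and robust eBayes), with a summed linear signal of 6403 to 10802 against 31651 to 36392 in wild type. Mast cell, basophil and eosinophil markers fell for 6 of 7, or 3 with the floor required on all 5 arrays (1254 to 1293 against 5891 to 8771), with Ms4a2 not above the floor on any array. B cell markers fell for 3 of 5 (751 to 761 against 1047 to 1378; Ms4a1 not above the floor). These 3 (Cd79b, Vpreb3 and Igll1) lay above the floor on wild-type arrays only. They were thus tested only through the group where they were high, and their share is partly set by that filter. T and NK cell markers fell for 1 of 3 (1037 to 1218 against 1543 to 2053; Cd3d, Cd8a and Cd5 not above the floor). Macrophage and monocyte markers fell for 1 of 11, for 6 without wild-type replicate 3 and for 2 without Flvcr-deleted replicate 1 (2212 to 3126 against 2894 to 4495; Marco not above the floor). Of the dendritic cell and class II markers 1 of 5 fell and 1 rose (1121 to 1150 against 1140 to 1210; Itgax, H2-Aa and Ccr7 not above the floor), and of the megakaryocyte markers 1 of 3 fell and 1 rose (926 to 1090 against 1200 to 1232; Gp1bb not above the floor). Their part in the values of Psmb9 and of the interferon and class I genes was not tested.

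The rest of the core particle was higher as a group. Of 12 alpha and constitutive beta genes tested out of 16, 8 rose (66.7%, against 21.8% of all genes) and none fell, with a median of 0.48. All 12 differences were above 0. Without Flvcr-deleted replicate 1 the number that rose was 5. In the regulatory particle 4 of 15 tested out of 17 rose (26.7%), near the 21.8% of all genes, with a median of 0.24. The core thus had a larger share of genes higher, but the difference between these shares was not tested. The counts of the small subgroups that follow are to be read beside that 21.8%.

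In the beta ring, 5 of 7 constitutive genes rose (median 0.42). Psmb3, a structural subunit with no cutting site, read 12.58 and 12.64 against 11.93, 11.79 and 11.89. Psmb2, another structural subunit, read 12.82 and 12.76 against 12.07, 12.06 and 12.12. Both were tight within groups and far apart between them: Psmb3 rose 1.67-fold (0.74 ± 0.10, limma, adjusted p = 3.87e-04) and Psmb2 1.63-fold (0.71 ± 0.09, adjusted p = 3.96e-04). Psmb4, whose tail helps to join the half-built particles, read 13.52 and 13.37 against 12.90, 12.78 and 13.05 and rose 1.45-fold (0.53 ± 0.11, adjusted p = 0.00506). Psmb1 rose by 0.42 ± 0.10 (adjusted p = 0.0101), a call lost without Flvcr-deleted replicate 1 (adjusted p = 0.0851).

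In the alpha ring, 3 of 5 tested genes rose (median 0.54, or 0.22 without a floor). Psma4 read 12.11 and 12.002 against 11.29, 11.35 and 11.44, and rose 1.62-fold (0.69 ± 0.10, limma, adjusted p = 6.21e-04). Psma5 read 13.36 and 12.91 against 12.58, 12.45 and 12.62, and Psma7 read 12.05 and 11.77 against 11.33, 11.21 and 11.58. In both genes Flvcr-deleted replicate 1 stood above replicate 2. Psma5 rose by 0.58 ± 0.14 (adjusted p = 0.0100) and Psma7 by 0.54 ± 0.14 (adjusted p = 0.0131). Both calls were lost without that array, at 0.36 (adjusted p = 0.0972) and 0.40 (adjusted p = 0.117), and Psma7 also without wild-type replicate 1 (adjusted p = 0.0558), so that 1 of the 5 rose without the former array. Flvcr-deleted replicate 1 was the highest array for all 5 alpha genes. Psma2 read 13.63 and 13.18 against 13.01, 12.96 and 13.25, overlapped, and did not pass (0.33, adjusted p = 0.116). Without Flvcr-deleted replicate 2 the Psma2 difference was 0.56. Psma8, the form of germ cells, lay at the floor (6.65 to 6.92).

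Among the assembly chaperones of the core, 2 of 3 tested rose. Psmg1 forms a pair with Psmg2 that helps to build the alpha ring. Psmg1, on its single probe, read 10.04 and 10.08 against 8.50, 8.77 and 8.69, with no overlap. It rose 2.65-fold (1.41 ± 0.11, limma, adjusted p = 2.68e-05) and by 1.33 to 1.46 with any array left out, a change of about the size of that of Psmb10. Its partner Psmg2 read 10.66 and 10.44 against 10.12, 10.31 and 10.46, so the groups overlapped, and gave 0.26 ± 0.13 (adjusted p = 0.152). Psmg3, which acts with Psmg4, read 10.27 and 9.87 against 9.33, 9.05 and 9.55 and rose 1.70-fold (0.76 ± 0.17, adjusted p = 0.00621). Without Flvcr-deleted replicate 1 it gave 0.56 (adjusted p = 0.0553).

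The ATPases of the regulatory particle form the ring that unfolds the substrate. Of 5 tested, 2 rose (40%, against 21.8% of all genes), with a median of 0.31. Psmc2 read 13.29 and 13.28 against 12.69, 12.67 and 12.65, the tightest agreement within groups among the members that rose. It was 1.53-fold higher (0.62 ± 0.09, limma, adjusted p = 7.58e-04), although a dimmer probe of the gene gave 0.28 (adjusted p = 0.109 over all probes). Psmc4 read 11.78 and 11.91 against 11.51, 11.59 and 11.51 and rose 1.24-fold (0.31 ± 0.10, adjusted p = 0.0333). This call was lost when any array but wild-type replicate 2 was left out (adjusted p up to 0.235), with normexp (0.0790) and with the intensity trend (0.0761). Psmc1, Psmc3 and Psmc5 gave 0.32, 0.03 and 0.17 and did not pass, and Psmc1 passed without Flvcr-deleted replicate 1 (0.59, adjusted p = 0.0120).

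Of the other base subunits, 1 of 3 rose (33.3%, against 21.8% of all genes). Psmd1, the large scaffold of the base, read 13.02 and 12.92 against 12.18, 12.31 and 12.32 and rose 1.62-fold (0.70 ± 0.10, limma, adjusted p = 6.35e-04). The dimmest probe of Psmd1 gave 0.16 (adjusted p = 0.423 over all probes). The ubiquitin receptor Psmd4 gave 0.15 (adjusted p = 0.274), and Psmd2 gave 0.02, at 6.86 to 6.97 just above the floor.

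In the lid, 1 of 7 tested genes rose (14.3%, below the 21.8% of all genes), with a median of 0.24. Psmd7, the partner of the deubiquitinase Psmd14, read 11.72 and 11.79 against 10.94, 10.90 and 10.90, and rose 1.798-fold (0.85 ± 0.09, limma, adjusted p = 1.46e-04). Its probes disagreed: another rose by 0.52 (adjusted p = 0.0235 over all probes), while the dimmest, annotated to a different transcript record, gave -0.24 (adjusted p = 0.336). Psmd14 itself read 9.43 and 8.92 against 8.88, 8.52 and 8.93, with Flvcr-deleted replicate 2 among the wild-type arrays. It gave 0.40 (adjusted p = 0.106) and passed without that array (0.65, adjusted p = 0.0234), when 2 lid genes were higher. Psmd12 gave 0.36 (adjusted p = 0.0529), and Psmd6, Psmd8, Psmd11 and Psmd13 lay between -0.01 and 0.24.

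The chaperones that build the base, Psmd5, Psmd9 and Psmd10, were the subgroup with no difference above 0, and none of the 3 passed the test. Psmd5 gave -0.31 (limma, adjusted p = 0.236) and Psmd9 -0.31 (adjusted p = 0.120). Both passed in the lower direction when 1 wild-type array was left out, Psmd5 without replicate 1 (-0.49, adjusted p = 0.0430) and Psmd9 without replicate 2 (-0.42, adjusted p = 0.0293). Psmd10 (gankyrin) gave -0.03, and its other probes -0.13 and 0.01.

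Of the alternative caps, 2 of 4 rose. Psme1 encodes the alpha subunit of PA28 and read 10.98 and 11.08 against 10.72, 10.45 and 10.70. It rose 1.33-fold (0.41 ± 0.12, limma, adjusted p = 0.0202), a call lost without either Flvcr-deleted array (adjusted p = 0.0541 and 0.128). A dimmer probe of Psme1 gave 0.20 (adjusted p = 0.200 over all probes). Psme2 encodes the subunit that Psme1 pairs with, lies near it on chromosome 14 with Emc9 between them, and is induced by interferon with it. Psme2 read 8.58 and 8.44 against 8.64, 8.25 and 8.46, and gave 0.06 (adjusted p = 0.795). Psme4, the single-chain cap PA200, read 11.001 and 10.84 against 10.48, 10.56 and 10.57 and rose 1.31-fold (0.38 ± 0.10, adjusted p = 0.0139), which was lost without Flvcr-deleted replicate 1 (adjusted p = 0.134). A dimmer probe of Psme4, near the floor, gave 0.24 (adjusted p = 0.158 over all probes). Psme3, the nuclear cap PA28 gamma, gave -0.02. The inhibitor Psmf1 was not analysed here.

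A total of 19 tested genes had several probes above the floor, and in 17 of them every probe had the same sign. The exceptions were Psmd7 and Psmd10. Of the 9 genes that rose and had several probes, 8 had every probe above 0, and 12 of their 13 additional probes were above 0. Over single probes 24 of the 65 were higher and 1 lower, beside 18.7% and 16.6% of all probes above the floor.

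**Figure D3:**
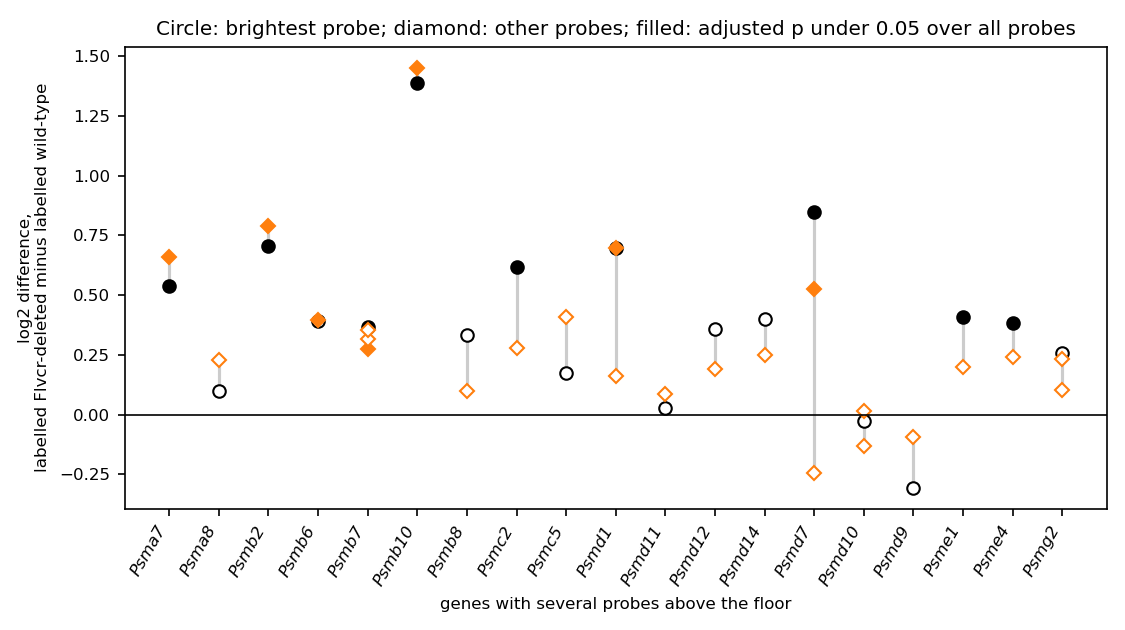
Log2 difference of each probe above the floor for the 19 genes with several such probes. The circle is the brightest probe, which stands for the gene in the text, and diamonds are the others, filled where adjusted p over all probes was under 0.05. Psmd7 spans 0.85 to -0.24, while both Psmb10 probes lie near 1.4.

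Factors that work with the proteasome but carry other names were read beside the family. Of 7 tested, 3 rose (42.9%, against 21.8% of all genes) and none fell, with a median of 0.33. Pomp, the maturation protein that escorts beta subunits into the core, read 12.51 and 12.41 against 11.84, 11.85 and 12.07, and rose 1.45-fold (0.54 ± 0.11, limma, adjusted p = 0.00403). Uchl5, a deubiquitinase bound to the regulatory particle, rose by 0.50 ± 0.11 (adjusted p = 0.00616). Tpp2, a peptidase that trims proteasome products, rose by 0.41 ± 0.12 (adjusted p = 0.0243), a call lost without Flvcr-deleted replicate 2 (adjusted p = 0.191) and on leaving out replicate 2 (0.0513) or 3 (0.0603) of the wild type.

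Of 10 genes that supply ubiquitin or carry tagged proteins, 3 rose (30%) and 2 fell (20%), with a median of 0.19. These shares are near the 21.8% and 17.5% of all genes. Rad23b, a shuttle that brings tagged proteins to the proteasome, rose by 1.02 ± 0.11 (limma, adjusted p = 1.56e-04). Ubqln4, another shuttle, rose by 0.67 ± 0.11 (adjusted p = 0.00147), and the segregase Vcp rose by 0.56 ± 0.11 (adjusted p = 0.00316). Uba6, a ubiquitin-activating enzyme, fell by 0.79 ± 0.27 (adjusted p = 0.0425), and without Flvcr-deleted replicate 1 it gave -0.25 (adjusted p = 0.321). With any array left out 0 to 1 of these genes fell, and 5 rose without wild-type replicate 2.

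Transcription factors listed as possible regulators of proteasome genes moved otherwise, with 50% lower and 12.5% higher, against 17.5% and 21.8% of all genes. Of 8 tested, 4 fell and 1 rose (median -0.37, or -0.086 without a floor), and 2 fell without Flvcr-deleted replicate 2 and also without wild-type replicate 1. Nfe2l1, the factor that raises proteasome genes when proteasomes fail, read 8.92 and 9.11 against 8.96, 9.04 and 9.05 and gave 0.00 ± 0.10 (limma, adjusted p = 0.987). Its activity is set by processing of the protein, which arrays do not read. Nrf1, the nuclear respiratory factor and a different gene from Nfe2l1, fell by 1.15 ± 0.12 (adjusted p = 1.19e-04). Nfyc, a subunit of the CCAAT-binding factor NF-Y, fell by 0.50 ± 0.10 (adjusted p = 0.00334). The other subunits Nfyb and Nfya, named after their values were seen, fell by 0.44 and 0.30 (adjusted p = 0.0388 and 0.0388). Stat3 rose by 0.63 ± 0.12 (adjusted p = 0.00330).

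**Figure D4:**
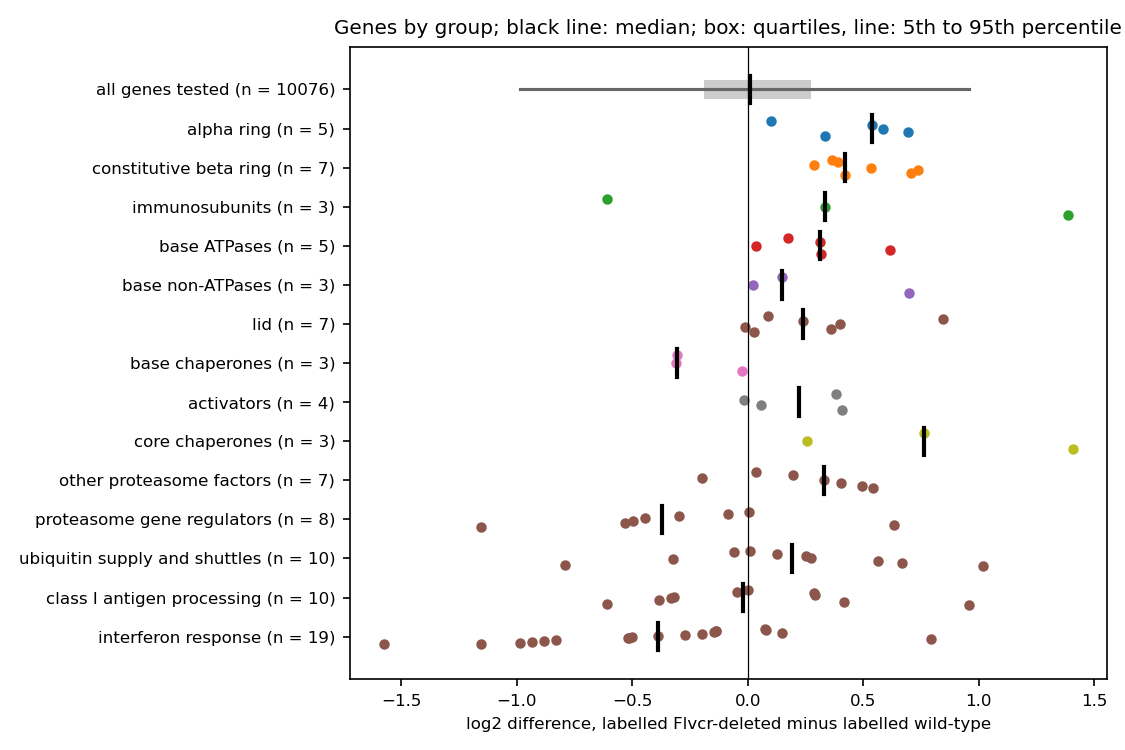
Log2 difference of single genes by role in the proteasome and in 5 related lists, with n genes tested in each. Points are genes, black lines medians, and the top row gives all 10076 genes as a black median line, a box of quartiles and a thin line for the range without the extremes. The alpha ring, constitutive beta ring and core chaperones lie right of 0, with medians of 0.42 to 0.76. The base ATPases and base non-ATPases also lie right of it, with medians of 0.31 and 0.15. The base chaperones lie left of 0, with a median of -0.31, and the interferon list mostly left, with a median of -0.39.

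Promoters were then searched for 4 short motifs, in 250 bases before to 50 after the start, on both strands. RefSeq promoters on GRCm38.p6 matched 39 of the 47 genes. The antioxidant response element core TGACNNNGC, read by Nfe2l1 and its relatives, was in 6 of 39 (15.4%). It was in 14.0% of all genes with a promoter and in 16.5% of the tested genes among them. The NF-Y box CCAAT was in 14 (35.9%) against 41.1% of all genes and 43.6% of tested genes. The interferon-stimulated response element core, GAAA, any 2 bases and GAAA again, was in 5 (12.8%) against 3.99% and 3.98%. The STAT site TTCNNNGAA was in 3 (7.69%) against 9.55% and 8.56%, in the same order. These shares are descriptions without a test, and a match is not a bound site.
Bases before the start are printed for Psmg1 (chr16:95990961-95991210, minus strand), which rose over 2-fold, for Psmb3 (chr11:97703184-97703433, plus strand), the alpha or constitutive beta subunit of largest change by its brightest probe, and for Psmb5 (chr14:54617996-54618245, minus strand), a catalytic subunit that did not pass. They were chosen after the values were seen. Capitals mark the STAT site in Psmg1, an inverted interferon element and a pair of CCAAT boxes in Psmb3, and the antioxidant element in Psmb5.
Psmg1: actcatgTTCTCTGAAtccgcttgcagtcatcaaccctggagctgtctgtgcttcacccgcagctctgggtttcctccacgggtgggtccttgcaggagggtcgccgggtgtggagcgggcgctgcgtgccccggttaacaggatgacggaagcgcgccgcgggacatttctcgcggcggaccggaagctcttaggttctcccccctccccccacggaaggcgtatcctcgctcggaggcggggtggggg
Psmb3: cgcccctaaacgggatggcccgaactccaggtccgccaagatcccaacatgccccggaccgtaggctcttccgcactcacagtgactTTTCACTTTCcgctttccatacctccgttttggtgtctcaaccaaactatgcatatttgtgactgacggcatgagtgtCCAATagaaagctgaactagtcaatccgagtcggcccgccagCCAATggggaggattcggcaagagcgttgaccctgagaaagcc
Psmb5: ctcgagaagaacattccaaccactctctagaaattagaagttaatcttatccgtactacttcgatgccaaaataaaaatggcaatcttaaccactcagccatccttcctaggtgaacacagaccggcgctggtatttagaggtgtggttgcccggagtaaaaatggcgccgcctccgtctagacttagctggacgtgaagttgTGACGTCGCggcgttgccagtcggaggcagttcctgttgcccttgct
The interferon element was found in Psmb3 and Psme1, which rose, in Psmd4 and Psmd9, which did not pass, and in Psmg4, which was not above the floor. In the immunosubunits it was not found within these windows, which says nothing of sites elsewhere. Of the 13 genes that rose and had a promoter, 3 held the CCAAT box (Psma7, Psmb3 and Psmc2) and 1 held the antioxidant element (Psme4).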

How the data were processed

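The 5 arrays hold erythroblast RNA from mouse marrow, 2 from the Flvcr-deleted and 3 from the wild-type group by title and genotype label. Per the labels' protocols, biotinylated cRNA of total RNA was hybridised to Illumina arrays. The values are those the authors deposited, read as log2 signals: every array runs from 6.35 to 15.06 with a median of 6.76, as after quantile normalization. Neither the labels nor the file headers state the log base, the background treatment or the software. A table of signals before normalization was not used, because its 5 columns of signals match no sample's labels. The number of arrays limits the precision.

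The background floor of 6.83 lies above the mode of the signals (6.70) by 1.64 SD, with the SD (0.0823) taken from the values under the mode. Of 45281 probes, 34885 had a single symbol, 18 had several and 10378 had none. Probes above the floor on at least 2 arrays were kept, and the brightest stood for its gene, which gave 10076 genes. Differences were fitted with limma 3.58.1 (lmFit, eBayes) under R 4.3.3. Genotype was the sole term and tests were two-sided. Genes were called at a Benjamini-Hochberg adjusted p under 0.05, over all genes tested. The script was tested on simulated data. Within-group correlations were 0.989 to 0.992, so no array was a copy of another.

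The proteasome genes and the lists (other proteasome factors, regulators, ubiquitin supply and shuttles, class I, interferon response, and markers of 8 cell types) were chosen with earlier results of these data known. Named were the 6 catalytic genes, up to 3 called genes of largest difference per proteasome subgroup and related list, genes with probes of opposite sign, Nfe2l1 and Pomp; other members are given where 1 array changed their call, and marker lists as counts. Alternatives were a stricter and no floor, the mean of probes, normexp with an offset of 50, median centring, an intensity trend with robust eBayes, the replicate block, single probes and leaving out each array. With 1 array left in a group, its spread is taken to be that of the other group. Replicate numbers are shared between the groups, and deviations of same-numbered arrays correlated at -0.03 and 0.10. Both values rest on the same Flvcr-deleted deviations with the sign reversed, so they are not independent checks. Weak correlations cannot decide whether the numbers pair the samples, and no pairing is known.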

Additional observations from a re-analysis of the deposited data

How the results depend on the processing

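The proteasome genes kept their direction as a group under every alternative: 16 to 21 were higher and 1 lower, with the floor, the probe rule, normexp, centring, the trend or the replicate block changed, and 12 to 17 higher and 1 to 2 lower with each array left out. With the replicate block 2334 of all genes were higher and 1902 lower. The numbers do not mark a known pairing, and the block changed the calls of Psmb6 (0.51, adjusted p = 0.00666) and Psmc4 (0.30, adjusted p = 0.0599). The causes of the changes below were not tested, except that no floor adds genes at background.

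The median of all genes was 0.027, 0.015 and 0.014 with the floor on all 5 arrays, normexp and the replicate block. Without a floor, medians were 0.22 for the alpha ring, 0.24 for the ATPases, 0.51 for the core chaperones, 0.17 for the regulatory particle, -0.086 for the regulators and -0.27 for the interferon list, and 1 ubiquitin gene was lower. With the floor on all 5 arrays 2 lid genes were higher, the interferon median was -0.33, no class II marker was lower and 3 mast cell markers were. With the mean of probes 2 lid genes were higher, the regulatory particle's median was 0.28, 1 ubiquitin and 2 class I genes were lower, the interferon median was -0.17 and Psmb8 minus Psmb5 turned to -0.071. Normexp gave 1 ATPase higher, medians of 0.31 (regulatory particle), -0.44 (regulators) and -0.48 (interferon) and 2 macrophage markers lower. The trend gave 1 ATPase higher, 0 ubiquitin genes, 1 neutrophil and 2 class II markers lower, and 1 T and NK cell marker higher. The replicate block gave 1 ATPase and 4 lid genes higher, medians of -0.13 (base chaperones), 0.28 (regulatory particle), 0.21 (other factors) and 0.082 (ubiquitin), 1 ubiquitin gene lower, 4 class I genes higher and 6 macrophage markers lower. Single probes reversed Psmd10 (0.014) and Psmd7 (-0.24).

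With each array left out, the median of all genes ranged from 0.0099 to 0.015. The number higher was 5 to 8 in the core, 1 to 4 in the alpha ring, 1 to 2 among the immunosubunits, ATPases, lid and core chaperones, 0 to 2 among the activators, 3 to 5 in the ubiquitin list and 1 to 2 in the class I list. The number lower was 0 to 1 among the base chaperones and ubiquitin genes, 2 to 4 regulators, 1 to 3 class I genes, 5 to 10 neutrophil and 1 to 6 macrophage markers. Medians were 0.36 to 0.68 (alpha ring), 0.0098 to 0.66 (immunosubunits), 0.21 to 0.38 (ATPases), -0.30 to -0.13 (base chaperones), 0.15 to 0.25 (activators), 0.20 to 0.28 (regulatory particle), 0.21 to 0.40 (other factors), -0.41 to -0.29 (regulators), 0.082 to 0.34 (ubiquitin) and -0.44 to -0.30 (interferon). Nfe2l1 ranged from -0.093 to 0.10, Psmd10 from -0.19 to 0.14 and Psmb8 minus Psmb5 from -0.25 to 0.34. Of 381 comparisons of a named gene with an alternative other than a single probe or an array left out, 371 kept their direction and call.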
